A study of Homo sapiens with 6 samples.

Results

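The PI3K, AKT and mTOR core genes are 9 genes of 1 growth-signalling pathway: *PIK3CA*, *PIK3CB* and *PIK3R1* for the lipid kinase PI3K, *AKT1* and *AKT2* for the kinase AKT, *MTOR*, *RPTOR* and *RICTOR* for the mTOR complexes, and *TSC1* for the brake on mTORC1. They were chosen by gene symbol, and the 9 members are 9 of the 60480 genes in the count table. RNA-seq was performed on poly(A) RNA of OE-19 cells, an established line of adenocarcinoma of the esophagogastric junction (AEG). The control libraries (3 libraries) are titled shControl and their count columns are named Puro. The sources used here do not say further what the control cells carried. IGF2BP3 KD cells carried a knockdown of the m6A reader *IGF2BP3* by short hairpin RNA (3 libraries). All libraries come from this 1 cell line, and the sources used here do not say whether the 3 IGF2BP3 KD libraries carry the same hairpin or whether replicates are separate cultures, so p-values measure the spread between these libraries, which may be technical. In bulk RNA, fewer cells with a transcript and less of it in each cell cannot be told apart.

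Class I PI3K adds a phosphate to a membrane lipid when growth factor receptors are active, and the lipid recruits AKT to the membrane, where PDK1 and mTORC2 activate it. AKT restrains the TSC complex, which otherwise switches off the small GTPase RHEB, and RHEB activates mTORC1, the complex of mTOR with RAPTOR that drives protein synthesis and holds back autophagy. mTORC2 holds RICTOR in place of RAPTOR. The pathway is often activated in cancers of the stomach and esophagus, through mutation of *PIK3CA* or through ERBB receptors. Its activity is set by phosphorylation, which mRNA counts do not measure.

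Total counts ranged from 53424071 to 69989087 per library. The targeted gene *IGF2BP3* was counted 7416, 7363 and 6532 times in control and 777, 792 and 794 times in IGF2BP3 KD libraries (replicates 1, 2 and 3), so every library matched its label. All 5 epithelial markers examined (*EPCAM*, *CDH1*, *KRT8*, *KRT18* and *KRT19*) had at least 10 counts in each library, and their summed level lay between 5626 and 5771 CPM (counts scaled to library size). Summed fibroblast markers were at 20.7 to 23.9 CPM in control and 29.6 to 34.5 CPM in IGF2BP3 KD libraries, with *COL1A2* and *LUM* at 0, and the part of this difference in the results was not tested. Immune and endothelial markers summed to at most 1.31 and 0.560 CPM.

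Of the 9 members, 3 were lower (*AKT1*, *MTOR* and *RPTOR*) and 3 were higher (*PIK3CA*, *PIK3R1* and *AKT2*) in IGF2BP3 KD cells, while *PIK3CB*, *RICTOR* and *TSC1* did not pass the test. All changes were small, the largest being the rise of *PIK3CA* by 19.4%. A gene was called lower or higher at a Benjamini-Hochberg adjusted p under 0.05 in edgeR's quasi-likelihood test over 19778 genes. At this threshold 20.4% of all genes tested were called, 10.6% lower and 9.87% higher, against 6 of the 9 members. DESeq2 called the same 6 members, beside 30.8% of the 14581 genes to which it gave an adjusted p (16.6% lower and 14.2% higher). All 9 members passed the filter on low counts, with 1914 to 12738 counts per library. This filter admits genes from a minimum count of 10 upwards, and small changes are harder to call at low counts. The share called over all genes is not matched to the members for count. The part of count level in the difference was not tested. The median log2 fold change was -0.04 over the members and 0.01 over all genes tested, and the median of its absolute value was 0.17 over the members and 0.19 over all genes tested. Each of the 6 called members moved less than the median called gene of its direction, which was at -0.28 for lower and 0.31 for higher genes. These medians are not matched to the members for count. The libraries of the groups did not overlap in 7 of the 9 members, against 35.8% of all genes tested, a share that is not matched for count either.

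**Figure D1:**
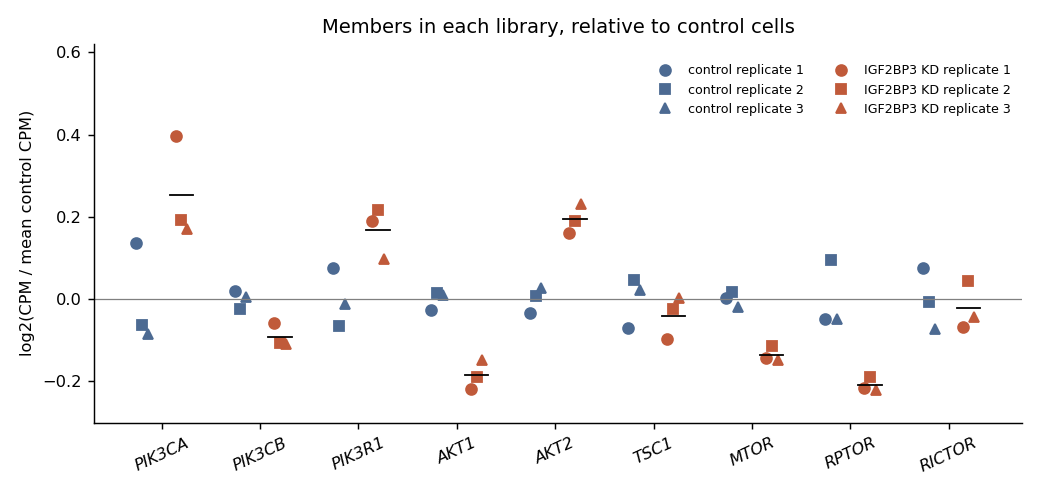
Each point is 1 library, drawn as the log2 of its TMM-scaled CPM over the mean CPM of the 3 control libraries (y axis) for each member (x axis). Blue is control, orange is IGF2BP3 KD, and the black line is the mean log2 value of the 3 IGF2BP3 KD libraries. *AKT1* (-0.18) and *AKT2* (0.19) lie on opposite sides of 0, and the groups overlap in *TSC1* and *RICTOR*.

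*AKT1* and *AKT2* encode close relatives of the same serine/threonine kinase. *AKT1* (ENSG00000142208) is a minus-strand gene of chromosome 14 (104769349 to 104795751, hg38 as all positions here). Its expression was 178, 183 and 182 CPM in control replicates 1, 2 and 3, and 156, 158 and 163 CPM in IGF2BP3 KD replicates 1, 2 and 3. Every IGF2BP3 KD library was below every control library. *AKT1* went from 180.8 ± 2.81 to 159 ± 3.93 CPM (SD, n = 3), or -0.18 on the log2 scale of fold changes (standard error, SE, 0.03, edgeR adjusted p = 0.00178).

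*AKT2* (ENSG00000105221, minus strand of chromosome 19, 40230317 to 40285536) moved the other way. It was at 157, 162 and 164 CPM in the control libraries and at 180.0, 184 and 189 CPM in the IGF2BP3 KD libraries, again without overlap. The mean rose from 161 ± 3.36 to 184 ± 4.60 CPM (SD, n = 3), or 0.19 on the log2 scale (SE 0.03, edgeR adjusted p = 0.00147). *AKT2* had the smallest p of the members. Both *AKT* calls held in each of the 6 fits that left out 1 library, with log2 fold changes between -0.21 and -0.17 for *AKT1* and between 0.17 and 0.21 for *AKT2*.

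The ratio of the 2 genes inside a library does not depend on how libraries are scaled. There were 0.886, 0.885 and 0.901 *AKT2* counts per *AKT1* count in control replicates 1, 2 and 3. The ratio was 1.16 in each IGF2BP3 KD library. *AKT1* thus had more counts than *AKT2* in each control library and fewer in each IGF2BP3 KD library. The ratio was 1.30-fold higher in IGF2BP3 KD cells, a log2 difference of 0.38 beside SDs of 0.014 (control) and 0.0012 (IGF2BP3 KD). Counting alone contributes an error of up to 1.09% to a value of *AKT1* and up to 1.02% to a value of *AKT2*. The 3 IGF2BP3 KD ratios lie closer together than this error, so their SD understates the uncertainty of the ratio. With 3 libraries a group, the two-sided exact permutation test cannot go below 0.1, and p was 0.1 here (0.125 adjusted over the 5 ratios examined).

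TGGAC, or UGGAC in RNA, was searched for because the study names it as a binding motif of IGF2BP3. In the 3′ UTRs of the MANE Select transcripts (the reference transcript chosen for each gene, GENCODE v44), the sense strand of *AKT1* holds TGGAC 2 times in 992 bases and *AKT2* holds it 6 times in 3555 bases. These sites are shown because the genes that hold them moved in opposite directions, with TGGAC in capitals, 5′ to 3′ on the minus strand.
AKT1, chr14:104770316-104770340: ggcggcggTGGACtgcgctggacga
AKT1, chr14:104770306-104770334: ggtggactgcgcTGGACgatagcttggag
AKT2, chr19:40233478-40233506: cgctgctgcatcTGGACgaaggctgcctt
AKT2, chr19:40233068-40233096: cttacctcccgcTGGACcctgggcctggc
AKT2, chr19:40232945-40232973: tattgggccccaTGGACttggtcagggag
AKT2, chr19:40232080-40232108: gtgggggtggggTGGACagagaccactcc
AKT2, chr19:40231405-40231433: tctaaagtcatgTGGACcttaatttaatt
AKT2, chr19:40230589-40230617: cctctctgcaaaTGGACacggcatcataa
The 2 windows of *AKT1* overlap, since its sites start at bases 9 and 19 of the 3′ UTR. All 9 members hold TGGAC there at least once, as do 61.4% of 13589 tested coding genes, whose 3′ UTRs have a median length of 1264 bases. A match is a run of letters and was not measured as a binding site in these libraries.

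Among the PI3K genes, *PIK3CA* and *PIK3R1* were higher, while *PIK3CB* was not called. *PIK3CA* (ENSG00000121879, plus strand of chromosome 3, 179148114 to 179240093) encodes the catalytic subunit alpha, the one most often mutated in cancer. Control replicates 1, 2 and 3 were at 52.4, 45.7 and 44.9 CPM, and the IGF2BP3 KD libraries were at 62.7, 54.4 and 53.7 CPM. The groups did not overlap, but replicate 1 stood above the other two in both, and the lowest IGF2BP3 KD library was only just above control replicate 1. The log2 fold change reached 0.26 (SE 0.08, edgeR adjusted p = 0.0347), from 47.7 ± 4.14 to 57.0 ± 5.03 CPM (SD, n = 3). The call was lost without control replicate 2 or 3 or IGF2BP3 KD replicate 1 or 2, with a log2 fold change from 0.18 to 0.33 over the 6 fits that left out 1 library.

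*PIK3CA* shares 19.8% of its annotated exon bases with *KCNMB3* on the opposite strand, and the strand setting of the counting is not given in the sources used here. *KCNMB3* had 470, 392 and 326 counts in control and 225, 287 and 196 counts in IGF2BP3 KD libraries, a log2 fold change of -0.60 (adjusted p = 0.0311 from edgeR). It therefore moved opposite to *PIK3CA*, which had 2632 to 3592 counts, and its part in the rise of *PIK3CA* was not tested. *PIK3CA* also has a partial, near-identical copy elsewhere in the genome, and how reads that match both were counted is not given in the sources used here.

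*PIK3R1* (ENSG00000145675, plus strand of chromosome 5, 68215740 to 68301821) encodes the main regulatory subunit, which stabilizes the catalytic subunits and keeps them inactive until a receptor binds. Its values were 56.9, 51.6 and 53.6 CPM in control and 61.6, 62.8 and 57.8 CPM in IGF2BP3 KD libraries. The groups lay close together without overlap. The mean rose from 54.0 ± 2.69 to 60.8 ± 2.59 CPM (SD, n = 3), or 0.17 on the log2 scale (SE 0.05, edgeR adjusted p = 0.0486). This p was the closest of the members to the threshold. The call was lost with RLE scaling (adjusted p = 0.0562 from edgeR) and without control replicate 2 or 3 or IGF2BP3 KD replicate 1 or 2, with a log2 fold change from 0.13 to 0.21.

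*PIK3CB* (ENSG00000051382, minus strand of chromosome 3, 138652698 to 138834928), the catalytic subunit beta, had 108, 105 and 107 CPM in control libraries. The IGF2BP3 KD libraries had 103, 99.1 and 99.0 CPM, all below the control libraries. The log2 fold change of -0.09 (SE 0.04, 95% interval -0.17 to -0.01, edgeR adjusted p = 0.108) did not pass the threshold over all genes, and no alternative called it. *PIK3CB* shares no exon base with another gene.

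Per count of *PIK3CB*, there were 0.485, 0.436 and 0.420 counts of *PIK3CA* in the control libraries, against 0.612, 0.549 and 0.542 in the IGF2BP3 KD libraries. The ratio was 1.27-fold higher in IGF2BP3 KD cells, without overlap (two-sided exact permutation p = 0.1, 0.125 adjusted over 5 ratios). *PIK3R1* counts per *PIK3CA* count were 1.09, 1.13 and 1.19 in control and 0.983, 1.15 and 1.08 in IGF2BP3 KD libraries. This ratio overlapped between the groups, with a log2 difference of -0.09 (two-sided exact permutation p = 0.4, 0.4 adjusted). The *PIK3CA* to *PIK3CB* count ratio was thus apart between these groups of libraries, and that of *PIK3R1* to *PIK3CA* was not. With groups of this size the permutation test cannot go below 0.1, so it cannot decide whether either ratio changed. The *PIK3CA* to *PIK3CB* ratio combines the rise of *PIK3CA*, whose call was lost in most fits that left out a library, with *PIK3CB*, which was not called. These are ratios of mRNA counts, and amounts of the subunits were not measured.

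**Figure D2:**
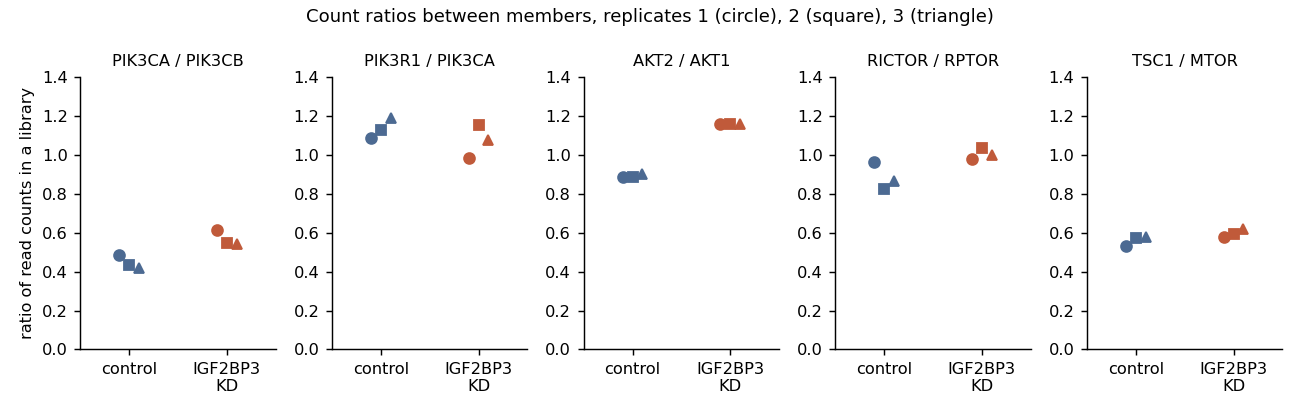
Each panel gives the ratio of the read counts of 2 members inside a library (y axis, from 0), for control (blue) and IGF2BP3 KD (orange) libraries, with circle, square and triangle for replicates 1, 2 and 3. The *AKT2* to *AKT1* ratio lies between 0.885 and 0.901 in control libraries and at 1.16 in each IGF2BP3 KD library, while *PIK3R1* to *PIK3CA* overlaps.

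*MTOR* and *RPTOR*, the kinase and the scaffold of mTORC1, were both lower, and *RICTOR*, the scaffold of mTORC2, was not called. *MTOR* (ENSG00000198793, minus strand of chromosome 1, 11106535 to 11262556) was at 139.6, 141 and 138 CPM in control and at 126, 129 and 126 CPM in IGF2BP3 KD libraries. The groups were well apart relative to their spread, which was the narrowest of the members in control cells at 1.26% of the mean. *MTOR* went from 139 ± 1.75 to 127 ± 1.58 CPM (SD, n = 3), or -0.14 on the log2 scale (SE 0.03, edgeR adjusted p = 0.0106). Its call held in each of the 6 fits that left out 1 library.

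*RPTOR* (ENSG00000141564, plus strand of chromosome 17, 80544819 to 80966371) encodes RAPTOR, which brings substrates to mTORC1. It had 40.7, 45.0 and 40.7 CPM in control and 36.3, 37.0 and 36.2 CPM in IGF2BP3 KD libraries. Control replicate 2 stood above the other control libraries, and the IGF2BP3 KD libraries were nearly level. The mean fell from 42.1 ± 2.46 to 36.5 ± 0.435 CPM (SD, n = 3), or -0.21 on the log2 scale (SE 0.06, edgeR adjusted p = 0.0245). The call was lost without control replicate 2 and without any 1 of the IGF2BP3 KD replicates, with log2 fold changes from -0.24 to -0.16.

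*RICTOR* (ENSG00000164327, minus strand of chromosome 5, 38937920 to 39074402) was at 39.2, 37.0 and 35.3 CPM in control libraries and at 35.5, 38.3 and 36.1 CPM in IGF2BP3 KD libraries. The groups overlapped fully. The log2 fold change was -0.02 with a 95% interval from -0.15 to 0.11 (adjusted p = 0.865 from edgeR). Per count of *RPTOR* there were 0.962, 0.823 and 0.868 counts of *RICTOR* in control and 0.978, 1.04 and 0.998 in IGF2BP3 KD libraries, a 1.14-fold higher ratio without overlap (two-sided exact permutation p = 0.1, 0.125 adjusted over 5 ratios). This p is the lowest the test can give with groups of this size. The ratio combines the fall of *RPTOR*, whose call was lost in most fits that left out a library, with *RICTOR*, which was not called. *RICTOR* shares 1.70% of its exon bases with *OSMR* on the opposite strand, which had 1474 to 1949 counts in control and 1025 to 1396 in IGF2BP3 KD libraries.

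*TSC1* (ENSG00000165699, minus strand of chromosome 9, 132891348 to 132946874) encodes hamartin, the subunit that stabilizes the TSC complex upstream of mTORC1. Its values were 74.2, 80.4 and 79.2 CPM in control and 72.8, 76.6 and 78.01 CPM in IGF2BP3 KD libraries, with wide overlap. The log2 fold change was -0.04 (95% interval -0.14 to 0.06, adjusted p = 0.643 from edgeR). There were 0.532 to 0.576 counts of *TSC1* per count of *MTOR* in control and 0.577 to 0.620 in IGF2BP3 KD libraries. These ranges all but touch, at a 1.07-fold difference (two-sided exact permutation p = 0.1, 0.125 adjusted over 5 ratios).

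Apart from *PIK3CA*, exon bases shared with other genes came to at most 6.05% of a member (*AKT1*), and *PIK3CB*, *PIK3R1* and *AKT2* share none. The members had 1914 to 12738 counts per library, so that counting alone contributes an error of at most 2.29% to a value. The variation between libraries of a group was 1.19% to 8.82% of the mean. *PIK3CA* was the most variable member in both groups.

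The 3′ UTRs were also searched on the sense strand for the words GATTACT and ACACATC, which were chosen after earlier results of these data tied the first to lower and the second to higher genes. None of the 9 members holds GATTACT in the 3′ UTR, which 7.76% of the tested coding genes do. *PIK3R1* and *RICTOR* each hold ACACATC once, as do 9.55% of the tested coding genes. These sites are shown for the only members with either word, with ACACATC in capitals, 5′ to 3′ on the strand of the gene.
PIK3R1, chr5:68298067-68298095: ggtggacccagACACATCgcactgtggat
RICTOR, chr5:38940895-38940923: ttattacaattACACATCagttttgacac
The window of *PIK3R1*, on the plus strand, also holds TGGAC, and that of *RICTOR*, on the minus strand, does not. *PIK3R1* was called higher and *RICTOR* was not, so the 2 members with this word did not share a call.

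Levels can be compared between genes only per length, given here as CPM per kilobase of all annotated exons. *AKT1* had the highest level of the members (16.5 ± 0.257 in control and 14.5 ± 0.359 in IGF2BP3 KD cells, SD, n = 3), followed by *PIK3CB* (13.6 ± 0.216 and 12.8 ± 0.257). *MTOR* and *AKT2* came next in control cells at 10.4 ± 0.131 and 10.1 ± 0.211, with ranges that overlapped. In IGF2BP3 KD cells *AKT2* was above *MTOR* without overlap, at 11.6 ± 0.289 against 9.48 ± 0.118. *TSC1*, *RPTOR*, *PIK3R1* and *PIK3CA* followed between 4.43 and 2.77 in control cells, where *TSC1* and *RPTOR* overlapped. *RICTOR* was lowest in both groups (2.76 ± 0.143 and 2.72 ± 0.112) and overlapped *PIK3CA* in control cells but not in IGF2BP3 KD cells.

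The order depends on the length used. Per kilobase of the MANE Select transcript, *AKT2* ranked 2 rather than 4 in control cells, at 30.7 ± 0.640 beside 61.2 ± 0.951 for *AKT1*. *AKT1* was the highest and *RICTOR* the lowest by either length. By annotated exons, *AKT2* made up 37.9%, 37.9% and 38.3% of the summed *AKT1* and *AKT2* level in control replicates 1, 2 and 3, and 44.4% in each IGF2BP3 KD library.

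**Figure D3:**
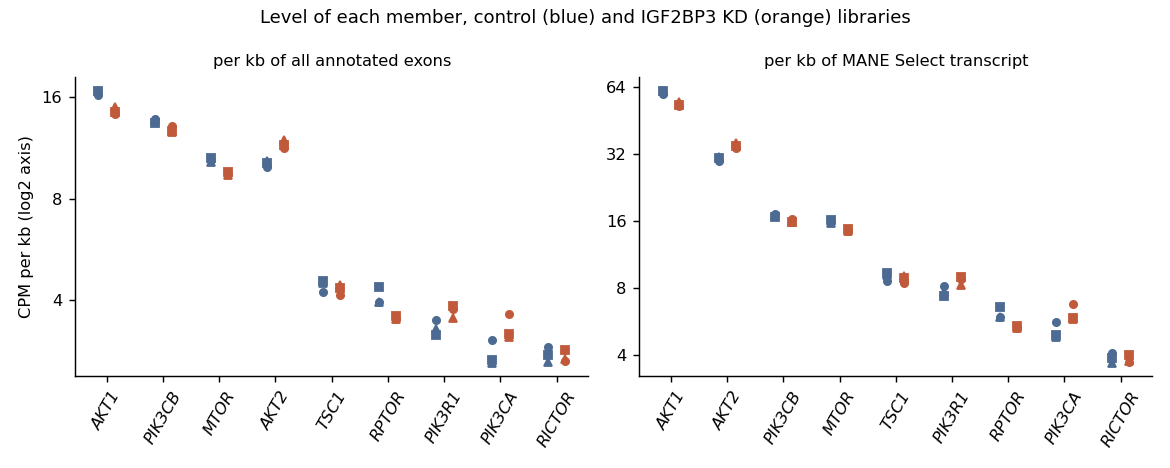
CPM per kilobase (log2 y axis) of each member in each library, ordered by its level in control cells, with length taken from all annotated exons (left) or from the MANE Select transcript (right). *AKT1* is the highest and *RICTOR* the lowest member on both sides, and *AKT2* moves from rank 4 on the left to rank 2 on the right.

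The genes whose pattern over the 6 libraries was most like that of *AKT2*, by the root mean square difference of log2 CPM from the control mean, were *BLCAP* (0.0108), *DYNC1I2* (0.0108) and *LPCAT4* (0.0114), out of 14288 genes compared. Their log2 fold changes were 0.18, 0.19 and 0.19, beside 0.19 for *AKT2*, a match that follows from how they were picked.

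Of the direct partners of the members, *MAPKAP1* and *RHEB* changed the most, both downwards. *MAPKAP1* encodes SIN1, the mTORC2 subunit that carries the complex to the membrane and to AKT. It was at 176, 172 and 178 CPM in control and at 112, 108 and 107 CPM in IGF2BP3 KD libraries, far apart relative to their spread, and it shares 11.5% of its exon bases with other genes. Its log2 fold change was -0.69 (SE 0.03, edgeR adjusted p = 2.6e-07). *RHEB*, the GTPase that switches mTORC1 on, was at 104, 107 and 93.1 CPM in control and at 72.6, 67.1 and 70.4 CPM in IGF2BP3 KD libraries. Its log2 fold change was -0.53 (SE 0.06, edgeR adjusted p = 5.3e-05), and the 3′ UTRs of *MAPKAP1* and *RHEB* hold neither GATTACT nor ACACATC.

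*DEPTOR*, an inhibitory subunit of both mTOR complexes, rose from 80.8 ± 2.73 to 90.6 ± 0.762 CPM (SD, n = 3), a log2 fold change of 0.16 whose call was lost without control replicate 3 or IGF2BP3 KD replicate 1 or 2 (range 0.14 to 0.18 with each library left out). *TSC2*, which encodes the GTPase-activating subunit of the TSC complex, was not called, with a log2 fold change of 0.07 (95% interval -0.05 to 0.20, and 0.04 to 0.11 with each library left out). *MLST8*, a subunit of both mTOR complexes, was at 0.15 (95% interval -0.02 to 0.32, and 0.07 to 0.19 with each library left out) and was not called. *PDPK1*, the kinase PDK1, was not called either, at -0.07 (95% interval -0.16 to 0.02, and -0.10 to -0.04 with each library left out). The regulatory subunits *PIK3R2* (0.28, 95% interval -0.01 to 0.58) and *PIK3R3* (-0.27, 95% interval -0.49 to -0.05) varied more between libraries, and 76.4% and 17.5% of their exon bases are shared with other genes. *PIK3R3* was called with DESeq2 and without control replicate 1, and *PIK3R2* without IGF2BP3 KD replicate 2, with ranges of -0.34 to -0.14 and 0.18 to 0.43 when each library was left out.

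**Figure D4:**
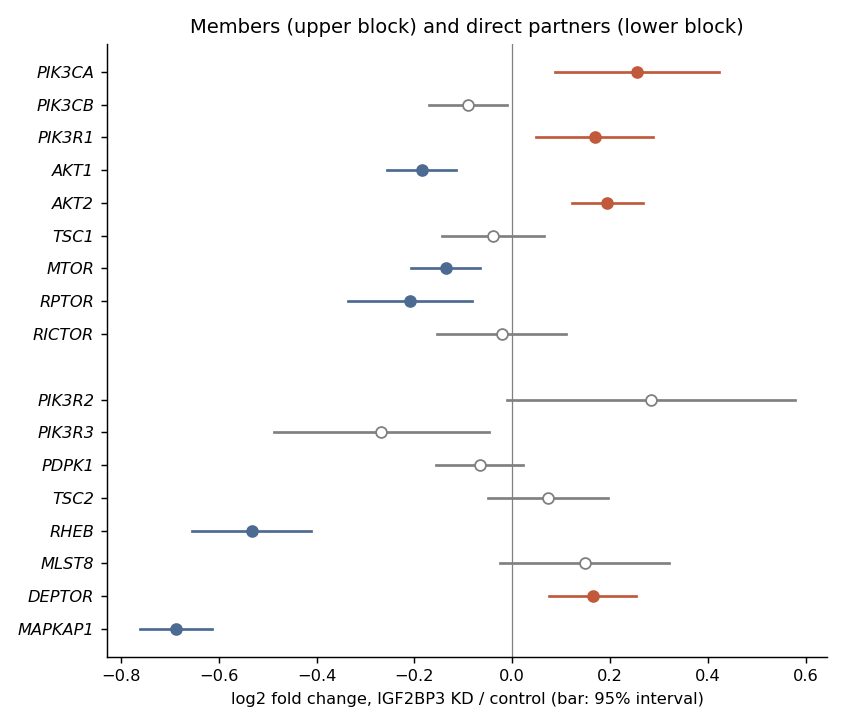
Log2 fold change of IGF2BP3 KD over control (x axis) with its 95% interval for the members (upper block) and their direct partners (lower block). Filled points were called lower (blue) or higher (orange), and open grey points were not called. *MAPKAP1* (-0.69) and *RHEB* (-0.53) lie further from 0 than any member.

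Other genes of the pathway were grouped into 11 lists by their role. Together the lists hold 132 tested genes besides the members, of which 20 were lower and 21 were higher, 31.1% in all beside 20.4% of all genes tested. The median log2 fold change of these 132 genes was 0.00, and the 2 shares called are not matched for count. Of the 7 tested genes among the other PI3K subunits, 1 was lower and 0 were higher. That gene was *PIK3R4*, a subunit of the class III PI3K that acts in autophagy, which went from 46.2 ± 0.874 to 30.3 ± 1.12 CPM (SD, n = 3), a log2 fold change of -0.61. Of 10 phosphatases that act on phosphoinositides or AKT, edgeR called 0 and DESeq2 called 1, and 2 had an unadjusted p under 0.05 in edgeR. These were *PPP2CA* (-0.10) and *PPP2CB* (0.12), which encode the catalytic subunits of protein phosphatase 2A. Among 6 tested genes of AKT regulation, *TRIB3*, a pseudokinase that binds AKT, was lower at -0.25. *THEM4*, which encodes a protein that binds AKT and restrains it, was higher at 0.28, and its call was lost without control replicate 2 or 3 or IGF2BP3 KD replicate 1 or 2 (0.20 to 0.36).

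Of 12 AKT substrates, 3 were lower and 2 were higher. *TBC1D1*, a GTPase-activating protein in glucose transporter traffic, fell most, from 19.3 ± 1.63 to 11.3 ± 1.41 CPM (SD, n = 3), a log2 fold change of -0.77. *PFKFB2*, an enzyme that stimulates glycolysis, was at -0.38. *FOXO4*, a transcription factor that AKT keeps out of the nucleus, was at 0.37. *AKT1S1*, which encodes PRAS40, a substrate of AKT and an inhibitor of mTORC1, was at 0.28. In the list of the TSC complex and RHEB (4 genes), *RHEBL1*, a relative of *RHEB*, was higher at 0.29 while *RHEB* was lower, and the call of *RHEBL1* was lost without control replicate 2 or 3 and without any 1 of the IGF2BP3 KD replicates (0.27 to 0.31), and without the filter on low counts. Among the 9 partners in the mTOR complexes, *MAPKAP1* was lower and *DEPTOR* and *AKT1S1* were higher.

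mTORC1 is called to the lysosome by the Rag GTPases when amino acids are present. Of 31 genes of this branch, 4 were lower and 4 were higher. The 3 largest called changes were falls in genes of nutrient sensors that restrain mTORC1 or of their relatives. *BMT2*, which encodes the S-adenosylmethionine sensor SAMTOR, had a log2 fold change of -0.55. *SESN2*, a leucine sensor, was also at -0.55, from 27.9 ± 1.22 to 19.1 ± 1.79 CPM (SD, n = 3). Its relative *SESN3* went the other way, at 0.48, and was not called (edgeR adjusted p = 0.0636), though its groups did not overlap. *SESN1* was not called, at 0.13. *CASTOR2*, a relative of the arginine sensor *CASTOR1*, was at -0.54. The higher genes included *CASTOR1* itself (0.41), which shares 46% of its exon bases with another gene, the Rag GTPases *RRAGA* (0.40) and *RRAGC* (0.36), and *LAMTOR3* (0.23), a subunit of the complex that anchors them. Some fits called 3 genes of this branch higher rather than 4. They include the fits without control replicate 2, without IGF2BP3 KD replicate 1 and without the filter on low counts.

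Of 22 substrates and outputs of mTOR, 5 were lower and 5 were higher. *EIF4EBP1*, the repressor of translation initiation that mTORC1 inactivates, went from 69.1 ± 1.47 to 51.5 ± 1.87 CPM (SD, n = 3), a log2 fold change of -0.42. *RPS6KB1*, the kinase that mTORC1 activates toward ribosomal protein S6, went from 54.5 ± 2.79 to 67.5 ± 1.32 CPM, or 0.31 on the log2 scale. *SGK3*, a kinase related to AKT, was at 0.43, with 44% of its exon bases shared with another gene. Upstream, 1 of 11 tested receptors and adaptors was lower and 3 were higher. This count leaves out the receptor *ERBB3*, which was placed in the list of FOXO targets and was lower, at -1.46. *PIK3AP1*, an adaptor that binds PI3K, was at 0.43, and *GAB2*, a docking protein for PI3K, was at 0.40. *GAB1*, a docking protein of the same family, was at -0.26, a call that was kept only without control replicate 3 among the fits that left out 1 library (-0.32 to -0.19).

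**Figure D5:**
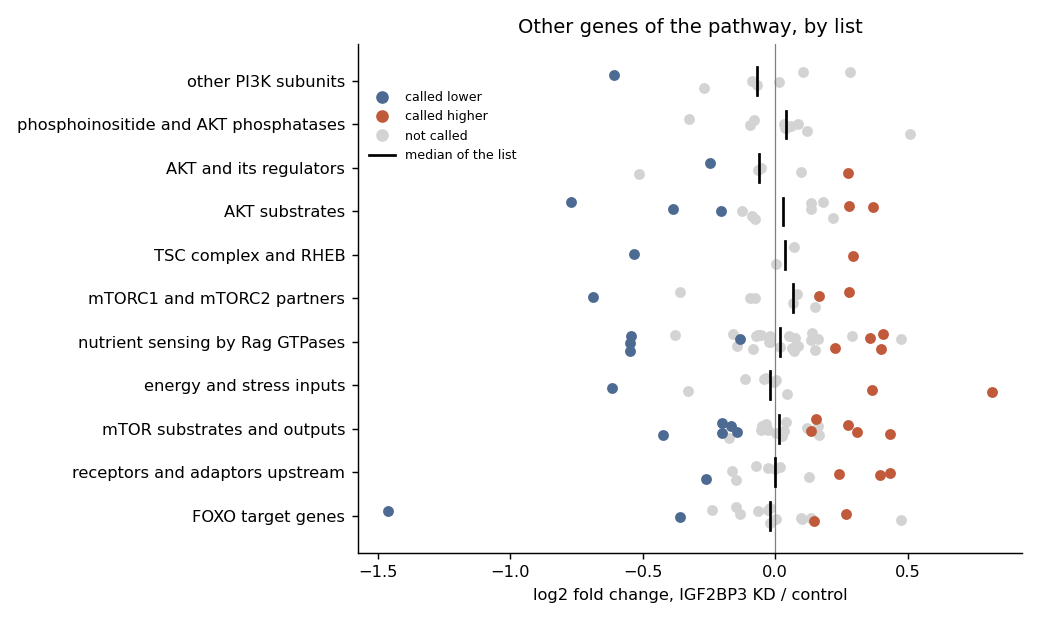
Log2 fold change of IGF2BP3 KD over control (x axis) for each tested gene of the 11 lists (y axis), with vertical scatter only to separate points. Blue points were called lower, orange points were called higher, grey points were not called, and the black bar is the median of the list. The medians lie between -0.07 and 0.07, and the genes called lie on both sides of 0 in 9 of the lists.

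GATTACT was present in the 3′ UTR of 16 of the 132 other pathway genes, of which 5 were lower (*TBC1D1*, *TBC1D4*, *PRKCA*, *GAB1* and *ERBB3*) and 1 was higher (*THEM4*). ACACATC was present in 19, of which 3 were lower and 2 were higher, and TGGAC in 90, of which 14 were lower and 12 were higher. Beside them stand 20 lower and 21 higher among all 132 of these pathway genes, and the 10.6% lower and 9.87% higher of all genes tested. GATTACT and ACACATC were picked for the calls of their genes in these same libraries, so their counts are a description with no test.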

How the data were processed

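Per the study's methods, the authors made poly(A) libraries with a directional kit and sequenced them as paired reads. Alignment used hisat2 with the hg38 genome, and featureCounts gave the gene counts. The deposited values are counts per gene, without normalization. Versions, annotation release and strand setting are not given in the sources used here, and fastp is named in the submitters' processing notes. Columns were assigned to libraries by name, and 132 repeated entries were left out. With edgeR 4.0.16 in R 4.3.3, counts were scaled by TMM, filtered with filterByExpr (minimum count 10, minimum total 15), and 19778 genes were tested with glmQLFTest without a block. Standard errors are the log2 fold change over the root of F. The fit was tested on simulated data. Between libraries of a group, a chi-square over genes, divided by its degrees of freedom, was at least 9.86, so none duplicates another. Ratios were tested with scipy 1.17.1, sequences and exon overlaps come from GENCODE v44 on hg38, and 99.97% of the tested genes were found there. DESeq2 1.42.0, RLE and upper-quartile scaling, other filters, coding genes only, a replicate block, and leaving out each library were alternatives.

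The members and the pathway lists were chosen with earlier results of these data known. Named from the lists are direct partners of members and the called genes with the 3 largest absolute changes in each list at a mean of at least 1 CPM. Other genes of the lists or beside members were named after their values were seen. Some genes of these lists are not reported here. *SOD2* in the list of FOXO targets is not analysed here.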

Additional observations from a re-analysis of the deposited data

How the results depend on the processing

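Over 13 alternatives, *AKT1*, *AKT2* and *MTOR* kept their direction and call in each, and *PIK3CB*, *RICTOR* and *TSC1* were called in none. Without a filter on low counts 1 member was called higher, since *PIK3CA* (edgeR adjusted p = 0.0892) and *PIK3R1* (edgeR adjusted p = 0.113) missed the threshold. With each library left out in turn, 1 to 3 members were called higher and 2 to 3 lower, and the log2 fold change of *RICTOR* ran from -0.059 to 0.016, turning above 0 without control replicate 1. These fits use fewer libraries. Replicate numbers do not pair the libraries: the correlation of deviations between same-numbered libraries was -0.0017, -0.032 and 0.0092. With the replicate block 2026 genes were lower and 1875 higher, against 2088 and 1953 without it, and the members' calls were unchanged. Of the direct partners and the genes with the 3 largest called changes in each list, *RHEBL1* lost its call with the block. *RHEBL1*, *THEM4* and *GAB1* lost theirs without the filter on low counts, and *GAB1* with upper-quartile scaling. The other named genes were not followed singly over the alternatives. Without the filter, 3 rather than 4 genes of nutrient sensing by Rag GTPases were called higher. DESeq2 called the same 6 members. The log2 differences of the 5 ratios kept their sign with each library left out. Counting error was at most 2.29% for the members. For *MTOR* it was close to the spread between libraries, and for *RPTOR* in IGF2BP3 KD cells it was above it.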

Other observations

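mTORC1 is also held back when energy is low or cells are stressed. Of 10 tested genes of this input, 1 was lower and 2 were higher. *DDIT4* encodes REDD1, which restrains mTORC1 under stress. It was at 173, 180 and 182 CPM in control and at 114, 114 and 122 CPM in IGF2BP3 KD libraries, or -0.61 on the log2 scale (SE 0.04, edgeR adjusted p = 1.3e-06). *PRKAG2*, a regulatory subunit of the energy sensor AMPK, went from 17.2 ± 0.888 to 30.3 ± 2.49 CPM (SD, n = 3), a log2 fold change of 0.82. *CAB39*, a scaffold of the kinase LKB1 that activates AMPK, was at 0.37. *STK11*, which encodes LKB1 itself, and the catalytic AMPK subunit *PRKAA1* were not called, with log2 fold changes of -0.03 and 0.00.

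When AKT is inactive, FOXO transcription factors enter the nucleus and raise a set of target genes. Of 16 tested genes of this set, which includes the member *RICTOR*, 2 were lower and 2 were higher, and the median change was -0.02 (log2). *ERBB3*, a receptor that recruits PI3K, had 393, 390 and 397 CPM in control and 141, 145 and 143 CPM in IGF2BP3 KD libraries, or -1.46 on the log2 scale (SE 0.03), and it holds GATTACT in its 3′ UTR. *CITED2*, a transcriptional regulator, was at -0.36, a call lost without IGF2BP3 KD replicate 3 (range -0.43 to -0.28 with each library left out). *KLF6*, a zinc finger transcription factor, was at 0.27, and *CAT*, the enzyme catalase, was at 0.15. *INSR* and *IRS2*, the insulin receptor and its substrate, were not called, with log2 fold changes of -0.15 and -0.03.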
